A study of Rattus norvegicus with 54 samples.

Results

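The genes described here are 36 genes of mitosis and S phase, chosen by name as rows of the lung and right ventricle (RV) count tables. Of these, 35 had a row in both tables, out of 12650 genes in the lung table and 12199 in the RV table, and Cenpe was not analysed here. In the rn6 annotation carried by the tables the 35 lay on 13 chromosomes, with Mki67, for example, at chr1:207993895-208020454 on the minus strand with 15 exons. Their transcripts were measured by RNA sequencing of whole lung and whole RV from 6-week-old Sprague Dawley rats of both sexes. H-H rats were conceived, born and raised in a hypobaric chamber that simulated 9000 feet, with inspired oxygen equivalent to 15%, and their parents had been kept and mated in the same air. RA-RA rats were conceived, born and raised in room air by parents kept in room air. The H-H rats came from 2 litters, named 4HH and 3HH, and the RA-RA rats from 2 litters, named 6RARA and 4RARA. Lung gave 6 libraries from 4HH and 8 from 3HH, against 7 from 6RARA and 8 from 4RARA. RV gave 6 libraries from 4HH and 8 from 3HH, against 4 from 6RARA and 7 from 4RARA. Every litter had a single air, so litter and air cannot be separated beyond 2 litters each. Littermates share a mother and may have shared a cage. Fits between the airs hold no litter term unless one is named. Their p-values rest on the spread between single rats of 2 litters per air. In comparisons of 2 litters, and with a litter term, the p-values rest on the spread between littermates. Rats, and not litters, were the replicates unless a random litter term is named.

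Cells that prepare to divide copy their DNA in S phase and separate the copies in mitosis. The genes of S phase make nucleotides and the replication machinery, and are switched on by E2F factors. The genes of mitosis encode the cyclin-dependent kinase Cdk1 and its cyclins, the kinesins and kinetochore proteins of the spindle, and the ubiquitin ligase that releases the sister chromatids. Most of the mitotic genes are repressed in resting cells by the DREAM complex through the cell cycle genes homology region and nearby CCAAT boxes. In the lung of a young rat the dividing cells include alveolar, vascular and immune cells, and in the heart most heart muscle cells have left the cell cycle by the age of weaning. In whole tissue, fewer dividing cells and less RNA per dividing cell cannot be told apart.

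The homology region, CCAAT and E2F forms were each present in a larger share of the promoters of these genes than of all promoters. The E2F forms were in 2 of 28 only. RefSeq promoters of the GRCr8 build, each 250 bases before to 50 bases after the transcription start, were matched by symbol for 29 of the 36 genes, and 28 were used. Those of Aurkb, Ccna2, Rrm2, Tpx2, Ube2c, Foxm1 and E2f1 were not matched and not searched. The promoter of Ccnb2 was matched but left out. The counted row of Ccnb2 is a locus with 1 exon on chromosome 1 of rn6, while RefSeq places the Ccnb2 gene on chromosome 8 of GRCr8. Both strands were searched for the homology region in the forms TTTGAA and TTTAAA, for CCAAT, and for the E2F forms TTTCCCGC, TTTCGCGC, TTTGCCGC and TTTGGCGC. The 200 bases before the start of 6 genes are printed 5′ to 3′, with matches in capitals and reverse-strand matches shown as ATTGG for CCAAT. Ccnb1, Cdc20, Cdk1 and Mki67 are shown because each holds a form of the homology region with CCAAT close by, and Tk1 and Tyms because they are S phase genes.
Ccnb1 (chr2:33655226-33655425, minus strand): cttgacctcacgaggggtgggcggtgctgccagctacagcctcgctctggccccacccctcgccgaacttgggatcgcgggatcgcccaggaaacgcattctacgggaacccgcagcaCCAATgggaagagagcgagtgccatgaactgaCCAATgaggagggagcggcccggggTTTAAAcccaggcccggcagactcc
Cdc20 (chr5:137255800-137255999, minus strand): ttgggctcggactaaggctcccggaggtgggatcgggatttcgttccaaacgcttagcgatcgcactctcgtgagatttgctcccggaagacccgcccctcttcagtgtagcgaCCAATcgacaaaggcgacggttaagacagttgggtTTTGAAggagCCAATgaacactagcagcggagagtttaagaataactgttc
Cdk1 (chr20:19265093-19265292, plus strand): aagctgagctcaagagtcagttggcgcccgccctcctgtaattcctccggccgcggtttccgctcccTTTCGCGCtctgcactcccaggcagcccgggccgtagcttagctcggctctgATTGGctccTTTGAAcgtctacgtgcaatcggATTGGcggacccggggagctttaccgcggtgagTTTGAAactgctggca
Mki67 (chr1:199952594-199952793, minus strand): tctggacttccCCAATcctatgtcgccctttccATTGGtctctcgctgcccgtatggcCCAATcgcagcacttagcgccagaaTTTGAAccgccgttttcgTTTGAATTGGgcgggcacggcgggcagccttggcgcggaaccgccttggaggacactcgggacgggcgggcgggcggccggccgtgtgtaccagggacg
Tk1 (chr10:103544778-103544977, minus strand): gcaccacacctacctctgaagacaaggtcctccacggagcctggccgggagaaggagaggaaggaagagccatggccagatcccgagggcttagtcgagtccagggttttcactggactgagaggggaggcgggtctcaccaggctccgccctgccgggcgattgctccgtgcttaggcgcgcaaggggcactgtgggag
Tyms (chr9:120776084-120776283, minus strand): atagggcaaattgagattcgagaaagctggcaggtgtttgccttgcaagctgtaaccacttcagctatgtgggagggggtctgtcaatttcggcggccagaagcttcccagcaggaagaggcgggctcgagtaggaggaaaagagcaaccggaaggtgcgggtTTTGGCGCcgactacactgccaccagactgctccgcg

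In Ccnb1 the homology region, in the form TTTAAA, lay 25 bases before the start, behind CCAAT boxes at 50 and 82 bases. In Cdc20 TTTGAA lay 51 bases before the start, between CCAAT boxes at 41 and 86 bases. Cdk1 and Mki67 each held 2 copies of TTTGAA, and in Mki67 the copy at 99 bases overlapped a CCAAT box on the other strand. Tyms held an E2F form 37 bases before its start and none of the other elements in the window printed, and Tk1 held none of the letters searched there. Over the 300-base windows, TTTGAA was present in 16 of 28 promoters of these genes (57.1%), against 18.1% of all 27457 promoters. TTTAAA was present in 10 of 28 (35.7%), against 13.5% of all, and either form in 22 of 28 (78.6%), against 27.9% of all. CCAAT was present in 20 of 28 (71.4%), against 37.7% of all. TTTGAA and CCAAT were present together in 13 of 28 (46.4%), against 7.25% of all. The E2F forms were present in 2 of 28, the S phase gene Tyms and the mitotic gene Cdk1 (7.14%), against 2.25% of all. The median GC content of these promoters was 59.8%, against 52.3% over all promoters. A match is a run of letters and was not tested as a binding site.

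In the lung, litter 4HH stood above the other litters. Averaged over the 35 genes, the level in log2 CPM, where CPM are counts per 1e6 of a library total scaled by TMM (trimmed mean of M-values), was 4.40 to 5.11 with a median of 4.67 in the 6 libraries of 4HH, against 3.61 to 4.04 with a median of 3.86 in the 8 libraries of 3HH. In room air it was 3.30 to 3.90 with a median of 3.65 in the 7 libraries of 6RARA and 3.25 to 4.14 with a median of 3.87 in the 8 libraries of 4RARA. Every 4HH lung lay above every other lung, and the 3HH lungs overlapped those of both room air litters. With the counts of each litter pooled, the 35 genes together took 0.121% of the counts of 4HH lungs and 0.0738% of those of 3HH lungs. The pooled share was 0.0596% in 6RARA lungs and 0.0701% in 4RARA lungs. The plot of lung CPM by litter shows the single libraries behind this.

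**Figure D1:**
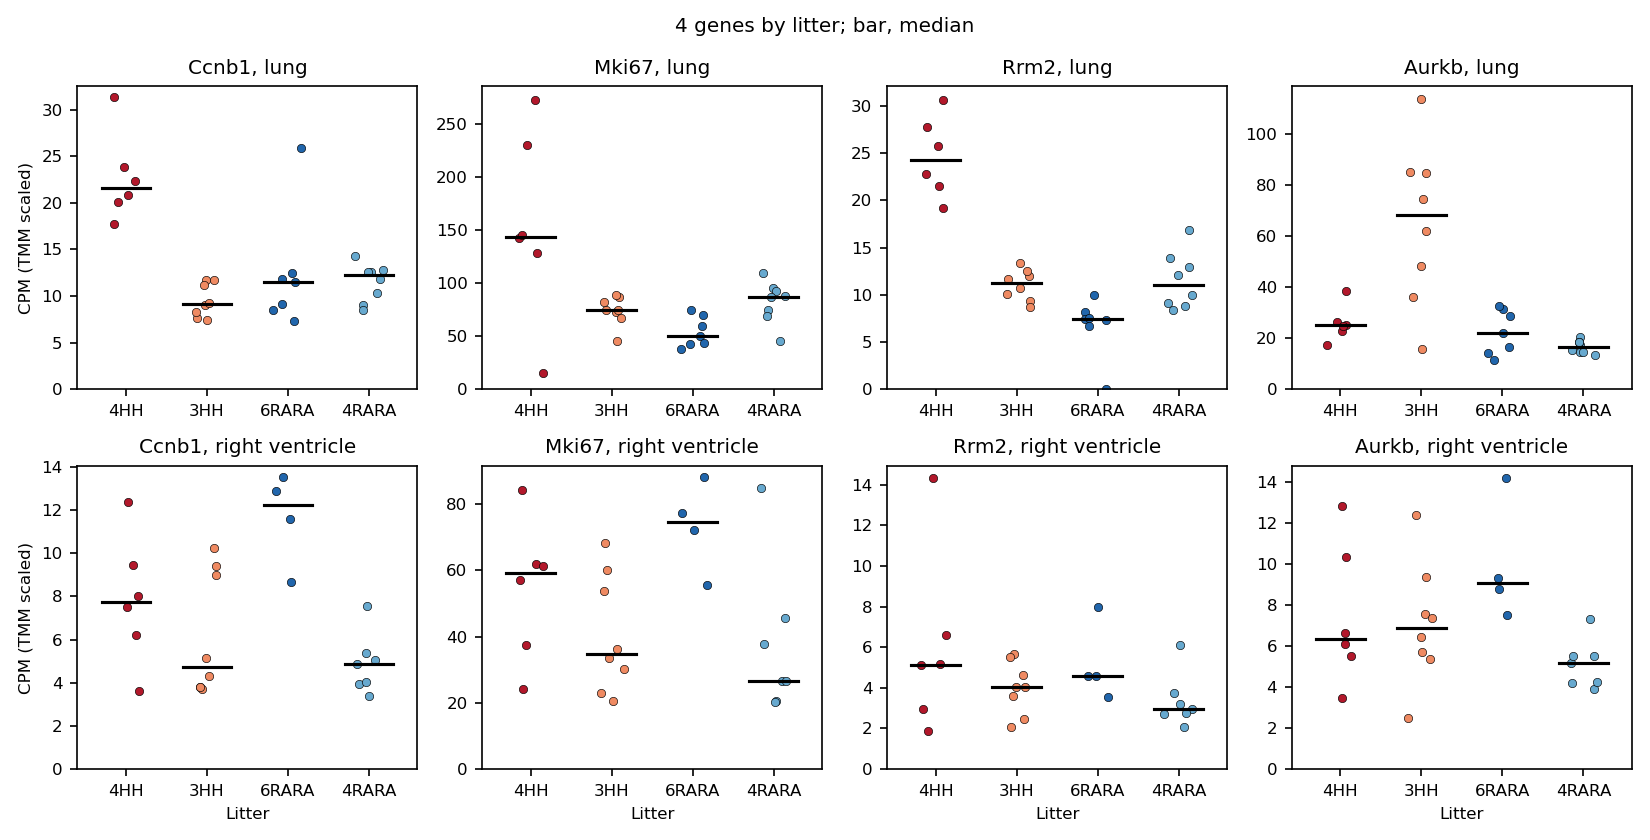
CPM of Ccnb1, Mki67, Rrm2 and Aurkb in every lung (top) and RV (bottom) library, by litter, on axes that start at 0; each point is a library and the bar is the median. In the lung the 4HH libraries of Ccnb1 lie at 17.7 CPM and above and the 3HH libraries at 11.7 CPM and below, and Aurkb is highest in 3HH.

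The tables came from libraries that differed in depth and quality. Summed gene counts ran in the lung over 9707031 to 23902634 in H-H and 1028679 to 21869603 in RA-RA, and in the RV over 9544462 to 16326512 in H-H and 6116006 to 14123386 in RA-RA. The RNA integrity number was 5.8 to 7.4 in the 4 RV libraries of 6RARA, against 6.5 to 9.6 in the 7 of 4RARA. Summed alveolar type 2 markers (7 of 8 measured, none at 0) were 20700 to 62900 CPM across lungs and summed heart muscle markers (10 of 10, none at 0) were 23000 to 111000 CPM across RVs, so both tissue labels held. The sequencing core's sheet marks the lung and RV of animal 3HH28 as swapped and their integrity numbers as not correct, and both libraries, used here as labelled, lay within these ranges. Animal 4HH37 stood apart in both tissues: its lung held 14000 CPM of heart muscle markers, where the other 4HH lungs held 41.2 to 102, and its RV held 12800 CPM of alveolar markers, where the other 4HH RVs held 8.93 to 139. The 6RARA RVs held 209 to 1570 CPM of alveolar markers and 23000 to 35100 CPM of heart muscle markers, against 11.2 to 169 and 73100 to 94900 CPM in the 4RARA RVs. The lung libraries of 4HH39, 6RARA66 and 6RARA68 correlated least with the other lungs.

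Within altitude, 21 of the 35 genes were higher in 4HH than in 3HH lungs and none was lower at an adjusted p under 0.05, where 0.741% of all 12141 genes tested were called in either direction and 0.634% as higher. Values are log2 fold changes with their standard error from edgeR's quasi-likelihood test, with Benjamini-Hochberg adjustment over all genes. The median change of the 35 was 1.08, against 0.02 over all genes, and 34 of the 35 changes were positive. For 18 of the 35, every 4HH library lay above every 3HH library, which was so for 0.873% of all genes. The calls were among the kinases and cyclins (4 of 6), the checkpoint and kinetochore genes (5 of 7), the anaphase ligase genes (2 of 2), the chromosomal passengers (2 of 3), the kinesin and midzone genes (5 of 6), the S phase genes (2 of 5) and the entry adaptor Cdca3, and in none of the 3 transcription factors or of Top2a and Mki67.

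Among the kinases and cyclins, Cdk1, the kinase that drives entry into mitosis, was at 36.4 to 85.6 CPM with a median of 44.6 in 4HH lungs, against 16.4 to 26.4 with a median of 21.3 in 3HH lungs, a change of 1.26 ± 0.19 (adjusted p = 0.00782 by edgeR). No library of the litters overlapped. Ccnb1, a B-type cyclin that activates Cdk1, was at 17.7 to 31.3 CPM with a median of 21.6 in 4HH lungs, against 7.42 to 11.7 with a median of 9.15 in 3HH lungs. Ccna2, the cyclin of S phase and early mitosis, was at 21.6 to 37.3 CPM with a median of 29.6 in 4HH lungs, against 10.4 to 16.5 with a median of 12.5 in 3HH lungs. Neither cyclin overlapped between the litters, and the changes were 1.26 ± 0.17 and 1.20 ± 0.16, both with an adjusted p of 0.0031 by edgeR. The row named Ccnb2, the other B-type cyclin, was at 13.0 to 29.1 CPM with a median of 20.7 in 4HH lungs, against 6.48 to 9.22 with a median of 7.91 in 3HH lungs. The litters did not overlap, and the room air litters, at 5.21 to 13.6 CPM in 6RARA and 6.52 to 13.2 CPM in 4RARA, reached the lowest 4HH lung. The change was 1.40 ± 0.16 (SE; n = 6 and 8; adjusted p = 0.00191 by edgeR). Since that row is the locus with 1 exon on chromosome 1, how its counts divide between copies of the gene is uncertain. Plk1 and Aurka, kinases of the spindle poles, had changes of 1.09 ± 0.26 and 0.55 ± 0.15 that missed the threshold (adjusted p = 0.074 and 0.123 by edgeR).

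The checkpoint holds anaphase until every chromosome is attached, and the kinetochore is what attaches it. Nuf2, a subunit of the Ndc80 complex that binds the microtubule end, was at 11.3 to 36.2 CPM with a median of 19.1 in 4HH lungs, against 5.90 to 9.88 with a median of 7.26 in 3HH lungs. The litters did not overlap and the change was 1.41 ± 0.24 (adjusted p = 0.0127 by edgeR), the highest of the 35. Its partner Ndc80 changed by 1.07 ± 0.23 (adjusted p = 0.0468 by edgeR), and Spc25, another subunit, had 1.19 ± 0.31 and missed the threshold (adjusted p = 0.107 by edgeR). Bub1, a checkpoint kinase, was at 27.98 to 54.4 CPM with a median of 39.98 in 4HH lungs, against 17.3 to 28.3 with a median of 21.0 in 3HH lungs, so that the litters touched at a single library. Bub1 changed by 0.91 ± 0.17 and Ttk, another checkpoint kinase, by 1.15 ± 0.19, and Bub1b, which holds the anaphase ligase inactive, by 0.96 ± 0.20, with adjusted p of 0.0246, 0.00931 and 0.0418 by edgeR. Cenpf, a large kinetochore protein, was at 7.96 to 92.2 CPM in 4HH lungs, against 25.6 to 38.1 CPM in 3HH lungs, and its change of 0.70 ± 0.35 did not pass (adjusted p = 0.323 by edgeR).

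Cdc20, the activator of the anaphase ligase, was at 25.4 to 34.5 CPM with a median of 29.3 in 4HH lungs, against 10.8 to 17.5 with a median of 14.1 in 3HH lungs. Ube2c, the enzyme that supplies that ligase with ubiquitin, was at 15.5 to 23.7 CPM with a median of 18.8 in 4HH lungs, against 5.43 to 10.6 with a median of 7.65 in 3HH lungs. Neither gene overlapped between the litters, and the changes were 1.08 ± 0.14 and 1.32 ± 0.16 (adjusted p = 0.00303 and 0.00258 by edgeR). Of the chromosomal passengers, which correct wrong attachments and complete division, Birc5 (survivin) was at 7.42 to 23.4 CPM with a median of 10.4 in 4HH lungs, against 2.92 to 6.37 with a median of 4.98 in 3HH lungs. Birc5 changed by 1.37 ± 0.27 and Cdca8 (borealin) by 0.89 ± 0.16 (adjusted p = 0.0323 and 0.0132 by edgeR), both without overlap of the litters. Cdca3, an adaptor that helps to start mitosis, was at 13.4 to 26.0 CPM with a median of 21.6 in 4HH lungs, against 6.16 to 11.0 with a median of 8.44 in 3HH lungs, and changed by 1.31 ± 0.18 (adjusted p = 0.00327 by edgeR).

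Aurkb, the kinase of the same passenger complex, went the other way and was the only one of the 35 with a negative change. It was at 17.6 to 38.4 CPM with a median of 25.0 in 4HH lungs, against 15.8 to 114 with a median of 68.5 in 3HH lungs. Of the 8 libraries of 3HH, 6 lay above every 4HH library, and 1, from animal 3HH23, lay below them all. The change of -1.32 ± 0.35 missed the threshold by edgeR (adjusted p = 0.11) and passed it by DESeq2 and without animal 3HH23. In room air Aurkb was at 11.4 to 32.7 CPM in 6RARA lungs and 13.6 to 20.5 CPM in 4RARA lungs.

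The kinesins and the proteins that bundle spindle microtubules followed the cyclins. Nusap1, which binds microtubules near chromosomes, was at 23.7 to 63.3 CPM with a median of 39.9 in 4HH lungs, against 12.2 to 20.7 with a median of 16.4 in 3HH lungs. Its change was 1.29 ± 0.20 (adjusted p = 0.00782 by edgeR), and the litters did not overlap. Prc1, which bundles the microtubules of the midzone, changed by 1.00 ± 0.13, Kif11, the kinesin that separates the spindle poles, by 1.01 ± 0.17, Kif20a, a kinesin of cytokinesis, by 1.15 ± 0.20, and Tpx2, which activates Aurka on the spindle, by 1.14 ± 0.23, and all 4 were called. Kif23, another kinesin of cytokinesis, had 0.64 ± 0.15 and missed the threshold (adjusted p = 0.068 by edgeR), although no 4HH library overlapped a 3HH one.

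Of the S phase genes, Rrm2, the small subunit of ribonucleotide reductase, was at 19.2 to 30.6 CPM with a median of 24.2 in 4HH lungs, against 8.66 to 13.3 with a median of 11.2 in 3HH lungs. Tk1, the salvage enzyme thymidine kinase, was at 34.4 to 52.5 CPM with a median of 38.8 in 4HH lungs, against 15.4 to 23.2 with a median of 19.6 in 3HH lungs. Neither overlapped, and the changes were 1.17 ± 0.15 and 1.05 ± 0.13 (adjusted p = 0.00286 and 0.00303 by edgeR). Pcna, the sliding clamp of the DNA polymerases, was at 96.5 to 232 CPM with a median of 102 in 4HH lungs, against 66.2 to 98.0 with a median of 73.5 in 3HH lungs, with overlap. Its change was 0.66 ± 0.20, that of Tyms, which makes thymidylate, 0.53 ± 0.17, and that of Gins2, a subunit of the replicative helicase, 0.92 ± 0.30, none of which passed (adjusted p of 0.162, 0.194 and 0.192 by edgeR).

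The transcription factors of the cell cycle had changes that did not pass. Foxm1, which switches on mitotic genes, was at 4.77 to 38.3 CPM with a median of 22.6 in 4HH lungs, against 13.1 to 16.9 with a median of 15.4 in 3HH lungs. E2f1, which switches on S phase genes, was at 18.5 to 40.7 CPM with a median of 26.1 in 4HH lungs, against 14.9 to 24.8 with a median of 18.8 in 3HH lungs. Both overlapped, and the changes were 0.55 ± 0.30 and 0.46 ± 0.17 (adjusted p = 0.355 and 0.236 by edgeR), beside 0.85 ± 0.31 for Mybl2 (adjusted p = 0.222 by edgeR).

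**Figure D2:**
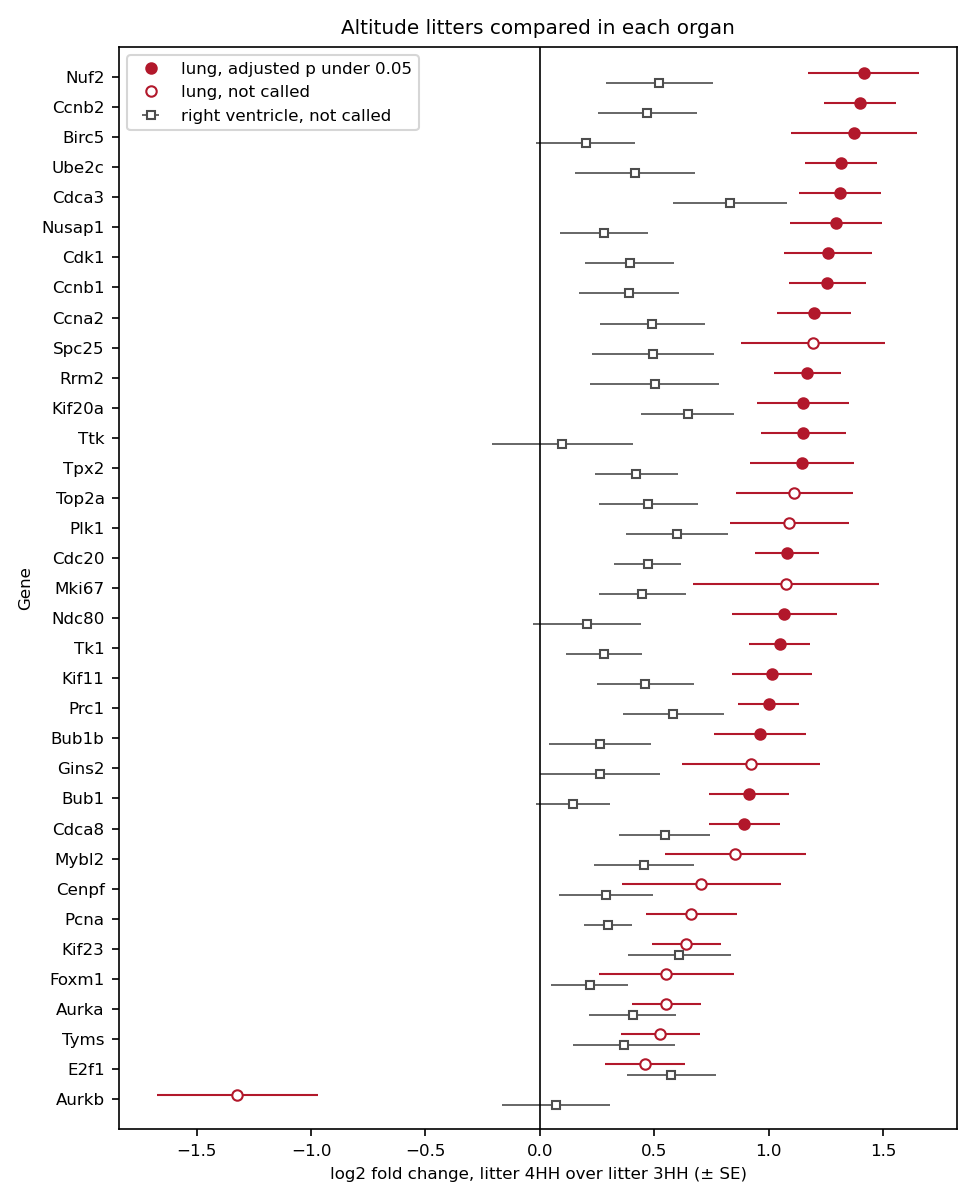
Log2 fold change of litter 4HH over litter 3HH for each of the 35 genes, with standard errors as bars, ordered by the change in the lung; circles are lung (filled where called) and squares are RV. In the lung 34 of the 35 points lie right of 0 and Aurkb lies at -1.32, and in the RV all 35 lie between 0.07 and 0.83.

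A single library lay far below its litter for the longest of the 35 genes, Cenpf and Mki67. Mki67, which encodes the proliferation antigen that coats mitotic chromosomes, was at 15.1 CPM in the lung of 4HH39 and at 128 to 273 CPM in the other 5 lungs of 4HH, against 45.4 to 88.4 CPM in 3HH lungs. The median was 144 CPM over all 4HH lungs and 74.8 CPM in 3HH lungs. Its change was 1.08 ± 0.40 with that library (adjusted p = 0.236 by edgeR) and 1.33 ± 0.19 without it (adjusted p = 0.0027 by edgeR). Top2a, the topoisomerase that untangles sister chromatids, was at 35.5 CPM in that library and at 86.4 to 146 CPM in the other 4HH lungs, against 33.2 to 58.9 CPM with a median of 49.7 in 3HH lungs, and its change over all libraries was 1.11 ± 0.25 (adjusted p = 0.0641 by edgeR). In that library the difference from the median of the other 4HH lungs, in log2 CPM, was -3.26 for Mki67, -2.94 for Cenpf and -2.26 for Foxm1, and it was 1.62 for Gins2, 1.23 for Pcna, 1.19 for Spc25 and 1.01 for Cdk1. Across the 35 genes the deviation had a Pearson r of -0.698 with log2 gene length, and across 12129 genes the r was -0.623. Single genes went against that relation, such as Gins2 at 4192 bases, Bub1 at 4493 bases with 0.284, and Ube2c at 763 bases with -0.051. The 35 genes are not independent replicates, and the integrity number of that library, 7.9, was the lowest of the 6 lungs. Without it, 28 of the 35 genes were called in 4HH against 3HH lungs, where 1.38% of all genes were called. Without both 4HH37 and 4HH39 it was 27 of 35, where 1.00% of all genes were called. Other libraries had a weaker negative r between deviation from their litter and gene length. Across the 35 genes and across all genes used, it was -0.418 and -0.432 in the lung of 6RARA68. It was -0.47 and -0.273 in the lung of 3HH30, and -0.417 and -0.447 in the RV of 4HH38. In others the r was positive, up to 0.442 across the 35 genes in the lung of 4RARA39.

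**Figure D3:**
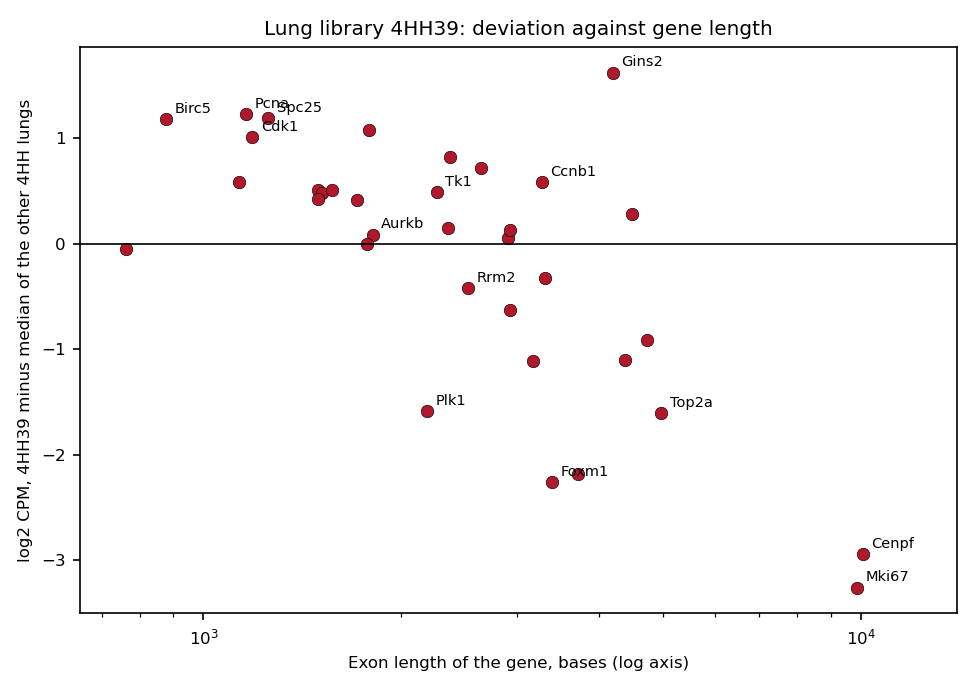
Difference between the lung library of 4HH39 and the median of the other 4HH lungs, in log2 CPM, against summed exon length on a log axis, for each of the 35 genes. Mki67 lies at -3.26 and Gins2 at 1.62.

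The median difference of the 35 genes between the litters at altitude changed little within library batches, while the calls and some single genes changed more. Over the alternatives, the change of Birc5 ran from 0.72 to 1.79 and that of E2f1 from 0.158 to 0.748. That of Ccnb1 ran from 1.12 to 1.33. Without each single library in turn, 13 to 28 of the 35 were called, with 13 when 4HH38 was left out. It was 16 without 3HH28, the animal marked as swapped, and Birc5 and Bub1 were among those not called then (adjusted p = 0.0786 and 0.0669 by edgeR). Within library batch 1 (3 libraries of 4HH and 4 of 3HH) the median change was 1.15, and within library batch 2 (3 and 3) it was 0.98. In each batch 34 of 35 changes were positive and none was called, while 28 and 32 of the 35 had an unadjusted p under 0.05. Here and below, counts of unadjusted p are a description of 35 genes that vary together. The share of all genes under that p is not given beside them. DESeq2 called 28 of 35 over all libraries, 27 higher and Aurkb lower, where it called 3.59% of all genes.

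Further cell cycle genes were called in the 4HH lungs. Of 46 further mitosis genes tested, 15 were higher in 4HH than in 3HH and none was lower, where 0.634% of all genes were higher, among them Cdkn3 at 1.45 ± 0.30, a phosphatase of cyclin-dependent kinases, and Pbk at 1.25 ± 0.24, a mitotic kinase. Of 40 further replication and S phase genes, 4 were higher, among them Asf1b at 1.40 ± 0.20, a histone chaperone. Of 8 Mcm genes of the replicative helicase, Mcm5 alone was called, at 0.86 ± 0.17. Of 40 regulators of G1 and of arrest, Ccne1 alone was called, at 1.13 ± 0.23. The medians of these lists were 0.84, 0.51, 0.54 and 0.12, against 0.02 over all genes. Together with the genes named first, they made up 42 of the 90 genes called in either direction.

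Red cell precursor transcripts moved with these genes between the litters. Of 15 erythroid genes, 5 were higher in 4HH than in 3HH lungs and none was lower, where 0.634% of all genes were higher. Among the 5 were Klf1 at 2.47 ± 0.49 and Ahsp at 2.23 ± 0.43, a transcription factor and a globin chaperone of red cell precursors. Both overlapped between the litters, and Klf1 was low, at 1.165 to 8.61 CPM in 4HH lungs and 0.299 to 1.36 CPM in 3HH lungs. The haem synthesis gene Alas2 and the globin genes Hbb and Hba-a1 were not called. Summed over the list without the globins, the level was 268 to 853 CPM in 4HH lungs and 119 to 295 CPM in 3HH lungs, against 183 to 546 CPM in 6RARA lungs and 156 to 370 CPM in 4RARA lungs, with no marker at 0. Summed lymphocyte markers had a median of 320 CPM in 4HH lungs and 238 CPM in 3HH lungs, against 313 CPM in 6RARA lungs and 402 CPM in 4RARA lungs, with no marker at 0. The part of either cell type in the difference was not tested beyond the fits that follow.

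Alas2, the enzyme that starts haem synthesis in red cell precursors, was at 60.1 to 389 CPM in 4HH lungs and 6.06 to 92.3 CPM in 3HH lungs, against 23.1 to 262 CPM in 6RARA lungs and 25.8 to 100.3 CPM in 4RARA lungs. The lowest 3HH value is that of 3HH28, and the other 3HH lungs were at 15.6 CPM and above. Over all 29 lungs, the Pearson r of log2 CPM between Alas2 and each of the 35 genes ran from -0.147 for Foxm1 to 0.682 for Cdca8, with a median of 0.435, and 31 were positive. The libraries share litters, and after centring on litter means the r ran from -0.393 to 0.461 with a median of 0.113, and 25 were positive. With litter in the model, edgeR called none of the 35 for a slope on Alas2, where 0.242% of all genes were called, and 4 of the 35 had an unadjusted p under 0.05. Without the litter term it called 18, where 12.5% of all genes were called. With Alas2 as a covariate, the median difference between 4HH and 3HH lungs was 1.10, near the 1.08 without it, but none of the 35 was called, where 0.00824% of all genes were called, and 28 of the 35 had an unadjusted p under 0.05. In the 25 RVs the r with Alas2 had a median of 0.498, or 0.293 after centring on litter, and with litter in the model edgeR called no slope among the 35, where 0.119% of all genes were called and 1 of the 35 had an unadjusted p under 0.05. Without the litter term it called 7 in the RV, where 6.88% of all genes were called.

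No relation between Mki67 and Alas2 inside the litters passed its test. Centred on litter means over 29 lungs, r was -0.206 (Spearman's rho -0.167), with a two-sided permutation p of 0.293 for r and 0.365 for rho, and of 0.293 for r after adjustment over the 2 relations tested. Without the 2 libraries farthest from the median of Alas2, r was -0.052. Without 4HH39, 6RARA66 and 6RARA68 it was 0.043, so even its sign rested on those libraries. By litter, r was -0.654 in 4HH, 0.284 in 3HH, -0.538 in 6RARA and 0.524 in 4RARA, with n of 6, 8, 7 and 8.

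For the lymphocyte index, the mean log2 CPM of the lymphocyte markers, the r with each of the 35 genes over the 29 lungs ran from -0.539 to 0.399 with a median of -0.049, and after centring on litter from -0.533 to 0.604 with a median of -0.125. For Mki67 the centred r was -0.383 (Spearman's rho -0.334), with a two-sided permutation p of 0.0632 for r, 0.126 after adjustment over the 2 relations, and 0.0878 for rho. Without the 2 libraries farthest from the median of the index it was -0.372, and without 4HH39, 6RARA66 and 6RARA68 it was 0.046. With litter in the model, Tyms alone of the 35 had a called slope on the index, at 0.66 per log2 unit (adjusted p = 0.0341 by edgeR), where 13.6% of all genes were called. That call was lost without the litter term, without the 2 farthest libraries, without 4HH39, 6RARA66 and 6RARA68, and with Alas2 added, with slopes of 0.344 to 0.628 and adjusted p of 0.0637 to 0.586 by edgeR.

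**Figure D4:**
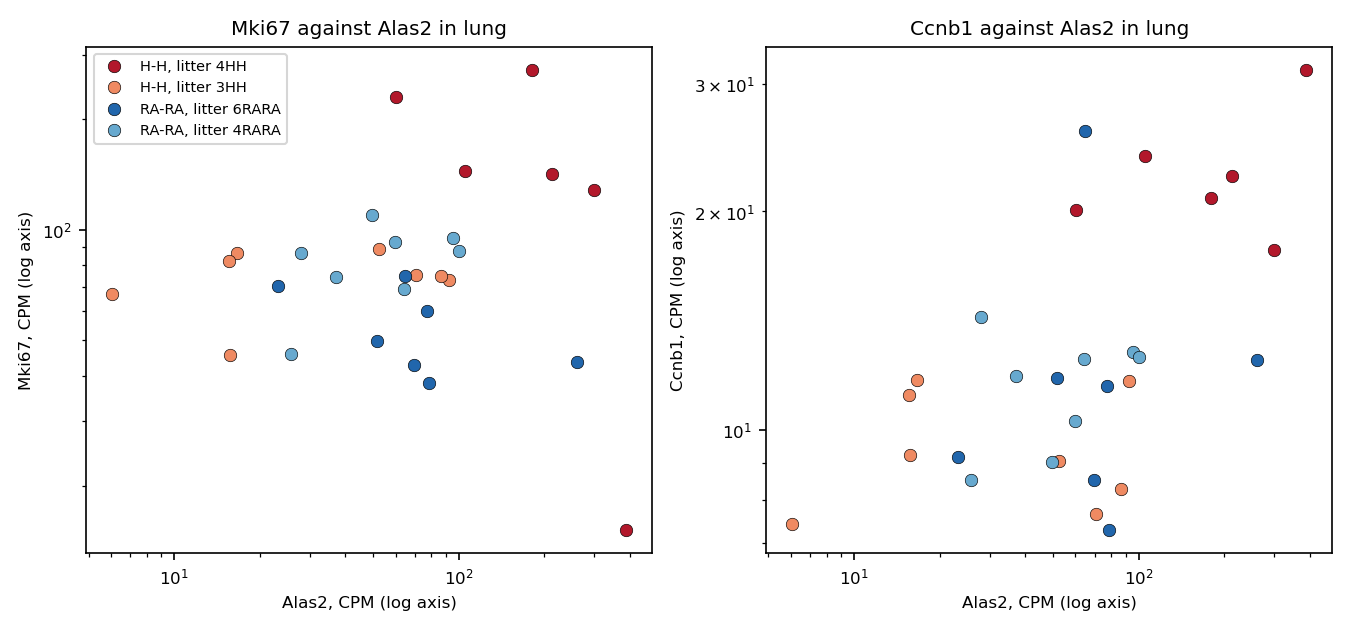
CPM of Mki67 (left) and Ccnb1 (right) against CPM of Alas2, all on log axes, in the 29 lung libraries, coloured by litter. The 4HH lungs lie high for both genes, except for the library with Mki67 at 15.1 CPM, which has the highest Alas2, 389 CPM.

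Between the airs, 3 of the 35 genes were higher in H-H than in RA-RA lungs and none was lower, where 2.00% of all genes were called in either direction and 0.867% as higher. All 35 changes were positive, with a median of 0.57 against 0.02 over all genes. Ccna2 was at 10.4 to 37.3 CPM in H-H lungs, against 6.89 to 15.4 CPM in RA-RA lungs, and changed by 0.92 ± 0.19 (adjusted p = 0.00652 by edgeR; n = 14 and 15). Bub1 was at 17.3 to 54.4 CPM in H-H lungs, against 10.4 to 27.6 CPM in RA-RA lungs, and changed by 0.63 ± 0.17 (adjusted p = 0.0443 by edgeR). In both genes all 6 lungs of 4HH lay above every RA-RA lung, and the 3HH lungs overlapped the RA-RA lungs. Aurkb was at 15.8 to 114 CPM in H-H lungs, against 11.4 to 32.7 CPM in RA-RA lungs, and changed by 1.35 ± 0.26 (adjusted p = 0.00388 by edgeR).

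The litters contributed unequally to these values. With 4HH alone against RA-RA, 28 of 35 were called and all were higher, where 2.84% of all genes were called in either direction and 2.05% as higher, and the median was 1.03. With 3HH alone against RA-RA, only Aurkb was called, at 1.78 ± 0.24 (adjusted p = 0.00019 by edgeR), where 1.93% of all genes were called, and the median was 0.02 with 18 of 35 changes positive. Aurkb was not called with 4HH alone, at 0.45 ± 0.20 (adjusted p = 0.234 by edgeR). With litter as a random effect in limma voom, none of the 35 was called, where 15 had an unadjusted p under 0.05. Within library batches 1 and 2 the median was 0.65 in each, with all 35 changes positive and none called by edgeR, and 7 and 17 of the 35 had an unadjusted p under 0.05. With the lymphocyte index as a covariate, 21 were called, where 11.0% of all genes were called.

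Further genes of replication and mitosis were called between the airs in the lung, where 2.00% of all genes were called in either direction and 0.867% as higher. Of 40 further S phase genes 4 were higher and none lower, among them Cdc45 at 0.77 ± 0.17, a helicase cofactor, and Chaf1b at 0.735 ± 0.20, a histone chaperone. Of 8 Mcm genes, Mcm10 was higher at 0.75 ± 0.17. Of 46 further mitosis genes 3 were higher and none lower, among them Cdca5 at 0.95 ± 0.22, which protects cohesion between sister chromatids, and Ckap2 at 0.71 ± 0.19, a spindle protein. Of 40 regulators, Ccne2, the E-type cyclin of S phase entry, alone was called, higher at 1.19 ± 0.23, a share of the list near that of all genes.

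Between the room air litters, Tyms and Mki67 were lower in 6RARA than in 4RARA lungs, where 31.3% of all genes were called in either direction and 15.6% as lower. Tyms was at 5.54 to 17.9 CPM with a median of 10.2 in 6RARA lungs, against 15.4 to 22.0 with a median of 19.6 in 4RARA lungs, and its change was -0.67 ± 0.17 (adjusted p = 0.0074 by edgeR; n = 7 and 8). Mki67 was at 38.2 to 74.8 CPM in 6RARA lungs, against 45.8 to 110 CPM in 4RARA lungs, and its change was -0.63 ± 0.19 (adjusted p = 0.0182 by edgeR). Both overlapped between the litters, and 2 of 35 is a smaller share than that of all genes. The median change of the 35 was -0.14. Of the 8 Mcm genes, 6 were lower in 6RARA lungs, among them Mcm5 at -1.01 ± 0.14 and Mcm6 at -0.80 ± 0.15. Of 40 further S phase genes 2 were higher and 5 lower, among them Tipin at 0.56 ± 0.19 and Uhrf1 at -1.13 ± 0.21. Of 46 further mitosis genes 5 were lower, among them Iqgap3 at -1.01 ± 0.26 and Ncapd3 at -0.67 ± 0.11, and of 40 regulators 4 were higher and 3 lower. The shares called in the S phase, mitosis and regulator lists were each smaller than the 31.3% of all genes.

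In the RV, 1 of the 35 genes was higher in H-H than in RA-RA and none was lower, where 3.04% of all genes were called in either direction and 0.832% as higher. That gene was Mybl2, a transcription factor of the late cell cycle, at 1.86 to 6.43 CPM in H-H RVs, against 0.933 to 2.79 CPM in RA-RA RVs, with overlap. Its change was 0.92 ± 0.22 (adjusted p = 0.0302 by edgeR; n = 14 and 11). The call was lost in 11 of 16 alternatives, which were the fits without each litter in turn, with library batch, integrity number or random litter terms, in each sex alone and within each of library batches 1 and 2. The change there was 0.28 to 1.5, with adjusted p of 0.0654 to 0.992 by edgeR or, for the random litter term, limma. The median change of the 35 was -0.10, and 10 were positive. Of the Mcm genes Mcm5, Mcm2 and Mcm4 were higher, at 0.91 ± 0.17, 0.52 ± 0.09 and 0.37 ± 0.10, and of 40 further S phase genes 3 were higher, among them Pole at 0.69 ± 0.16 and Pola2 at 0.67 ± 0.13, subunits of DNA polymerases. Of 45 further mitosis genes 12 had positive changes, and edgeR called none. Of 39 regulators 1 was called, the Cdk inhibitor Cdkn1c, lower at -1.27 ± 0.28, a share of the list near that of all genes.

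Between the 2 room air litters, 11 of the 35 genes, Cdk1 and other mitotic genes, had every 6RARA RV above every 4RARA RV, which was so for 20.4% of all genes. Tyms alone had every 6RARA RV below, which was so for 26.0% of all genes, and the other 23 overlapped, Bub1, Bub1b, Kif11 and Mki67 among them. No model was fitted between these litters in the RV. Mki67 was at 88.2, 55.6, 77.3 and 72.1 CPM in the 4 RVs of 6RARA, against 20.4 to 84.9 CPM with a median of 26.6 in the 7 RVs of 4RARA. Cdk1 was at 25.5, 16.7, 22.2 and 17.9 CPM in 6RARA RVs, against 5.72 to 12.2 CPM with a median of 7.36 in 4RARA RVs. Cdk1 did not overlap between these litters, and for Mki67 a single 4RARA RV, that of 4RARA39, reached the 6RARA values. Tyms went the other way, at 10.2, 12.7, 6.76 and 7.25 CPM in 6RARA RVs, against 23.6 to 26.6 CPM in 4RARA RVs. Low Tyms was not limited to 6RARA. It was at 12.7, 12.35 and 13.87 CPM in the RVs of 3HH20, 3HH27 and 3HH30, against 24.35 to 31.43 CPM in the other 3HH RVs. Integrity numbers overlapped between the room air litters through a single 4RARA RV, that of 4RARA40 at 6.5, and the other 4RARA RVs were at 7.8 to 9.6. In the RVs of 3HH20, 3HH27 and 3HH30 they were 7.2, 7.5 and 5.9, against 8.0 to 8.4 in the other 3HH RVs. Beside the alveolar and heart muscle markers, summed endothelial markers (7 of 7 measured, none at 0) were 3150 to 3920 CPM in 6RARA RVs, against 1220 to 1810 CPM in 4RARA RVs. Summed erythroid markers (17 of 25, none at 0) were 4170 to 5620 CPM in 6RARA RVs, against 1280 to 4020 CPM in 4RARA RVs, and without the globins 319 to 434 CPM in 6RARA RVs, against 398 to 502 CPM in 4RARA RVs. The part of any of these in the values was not tested. Without 6RARA, none of the 35 was called between H-H and RA-RA, where 0.158% of all genes were called, 4 had an unadjusted p under 0.05, 33 changes were positive and the median was 0.27. Without 4RARA, 18 were lower and 1, Tyms, was higher at 1.44 ± 0.27, where 55.6% of all genes were called in either direction and 26.5% as lower, and the median was -0.63.

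**Figure D5:**
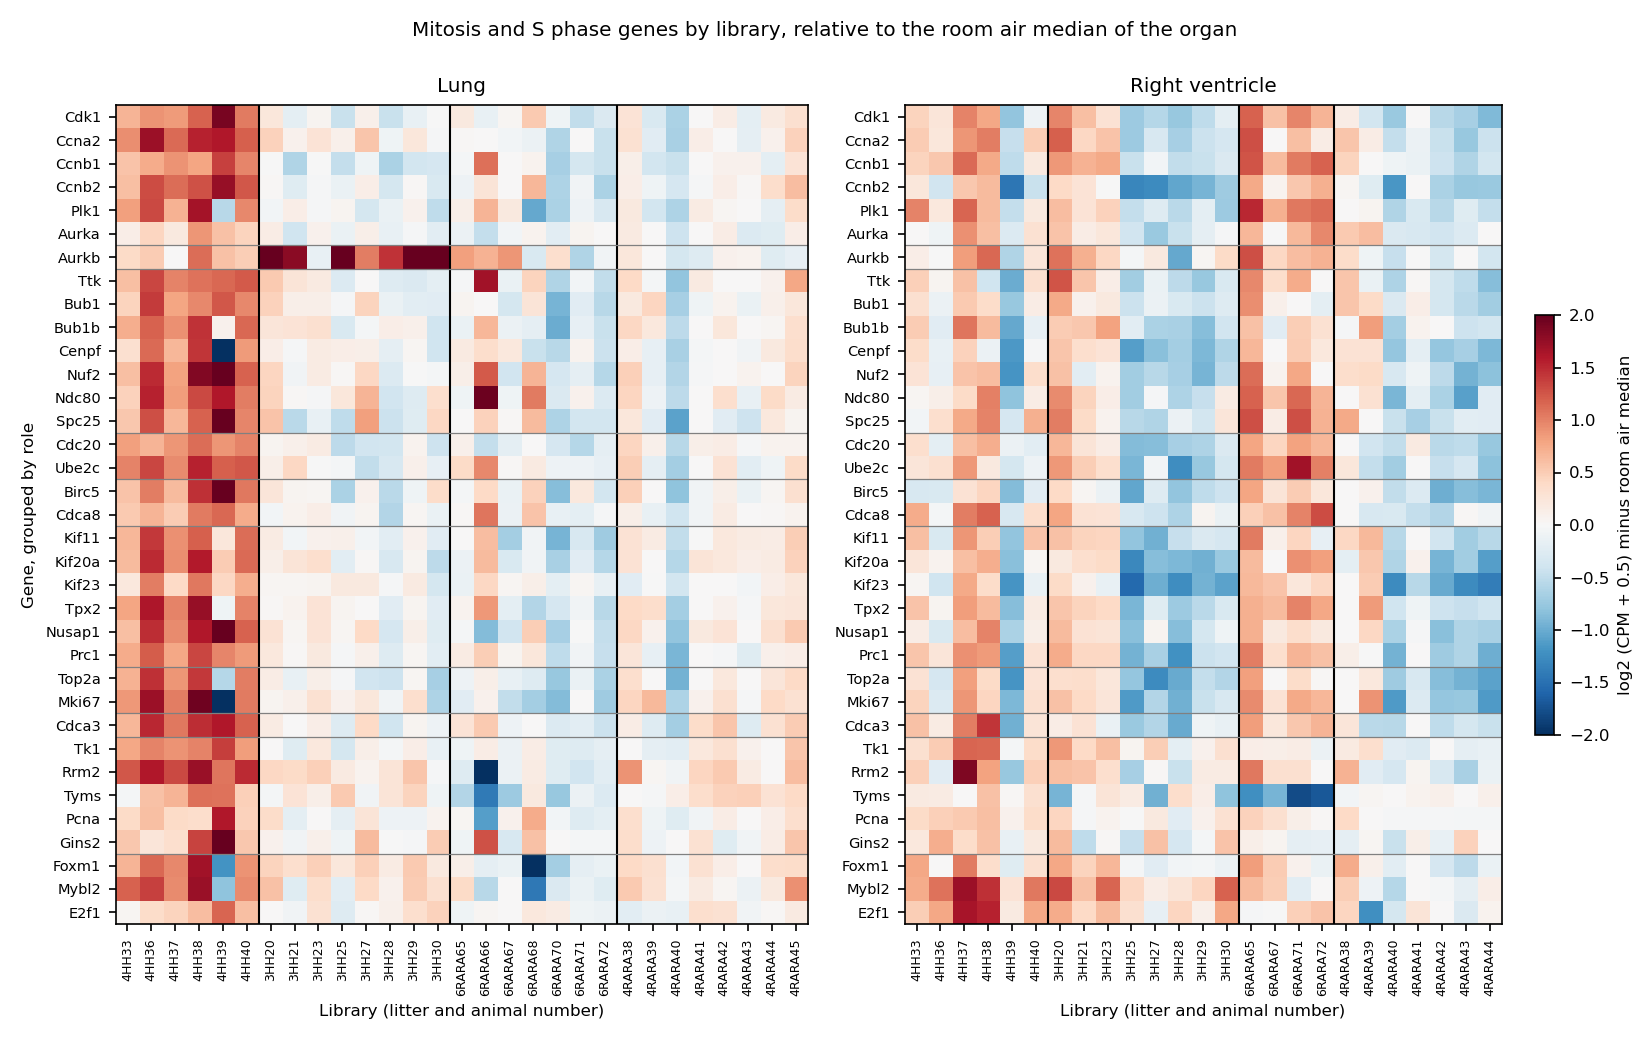
Log2 (CPM + 0.5) of each of the 35 genes, grouped by role, in every lung and RV library, minus the median of the room air libraries of the same tissue, with black lines between litters. The 4HH columns are high in the lung, Aurkb is high in most 3HH lungs, and in the RV the 6RARA columns are high for most mitotic genes and low for Tyms. Tyms is also low in the RVs of 3HH20, 3HH27 and 3HH30.

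Between the altitude litters, no gene of the 35 was called in the RV. All 35 changes of 4HH against 3HH RVs were positive, from 0.07 to 0.83 with a median of 0.42, but edgeR and DESeq2 each called none, where 0.0531% of all genes were called by edgeR, and 17 had an unadjusted p under 0.05. Mki67 was at 24.1 to 84.3 CPM with a median of 59.2 in 4HH RVs, against 20.6 to 68.4 with a median of 34.8 in 3HH RVs. No gene of the 35 had every 4HH RV above every 3HH RV, which was so for 0.239% of all genes. The difference between lung and RV in this contrast had a median of 0.66 with 33 of 35 positive, and none passed its own test, where 0.0343% of all genes did and 18 of the 35 had an unadjusted p under 0.05. The difference between lung and RV in the contrast of the airs was called for Aurkb alone, at 1.36 ± 0.36 (adjusted p = 0.0486 by edgeR), where 1.02% of all genes were called. With the animal as a block, since each rat gave both tissues, Aurkb had 1.11 ± 0.33 and was not called (adjusted p = 0.0945 by edgeR).

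No gene of the 35 was called for a difference between the sexes in the response to altitude. In the RV, Mki67 was at a median of 30.3 CPM in H-H females and 61.4 CPM in H-H males, against 50.6 CPM in RA-RA females and 26.6 CPM in RA-RA males. These groups mix litters, and the fits by sex hold no litter term. RA-RA males were at 77.3 and 72.1 CPM in 6RARA and 20.4 to 26.6 CPM in 4RARA. RA-RA females were at 88.2 and 55.6 CPM in 6RARA and 20.4 to 84.9 CPM in 4RARA. The median change of H-H against RA-RA over the 35 was 0.44 in males and -0.65 in females. The test of that difference gave 35 of 35 positive with a median of 1.08, and none was called by edgeR or DESeq2, as for all genes tested. Of the 35, 24 had an unadjusted p under 0.05, a count given without the share of all genes. In the lung the same difference had a median of 0.02, and none was called or had an unadjusted p under 0.05.

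The highest and the lowest level per length both belonged to S phase genes. Per kilobase of gene length, Pcna was highest in both tissues, with a median over libraries of 68.4 CPM per kb in the lung and 42.3 in the RV. Cdk1 and Prc1 followed in the lung, at 19.7 and 17.6 CPM per kb, and Tyms in the RV at 15.9. Gins2 was lowest in both, at 0.804 CPM per kb in the lung and 0.62 in the RV. Tyms was the only one of the 35 with a higher median in the RV, 24.9 CPM, than in the lung, 17.9 CPM. The least abundant of the 35 had a median of 31.0 counts per library in the RV.

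How closely the genes varied together inside the litters depended in the lung on which libraries were used. As a description over libraries that share litter and depth, the median pairwise r of log2 CPM centred on litter was 0.355 over all 29 lungs, 0.578 over the 26 other than 4HH39, 6RARA66 and 6RARA68, and 0.418 over the 21 without 6RARA and 4HH37. In the RV the same 3 sets gave 0.728 over all 25 libraries, 0.683 over 24 and 0.735 over 20. By each gene's own median r with the others, Prc1 was highest over all libraries of both tissues, at 0.668 in the lung and 0.851 in the RV. Rrm2 was lowest over all lungs, at -0.158, with Tyms at -0.007. The lung of 6RARA66 held 0 counts of Rrm2, and Rrm2 was at 0.523 over the 26 lungs and 0.445 over the 21. Aurkb was lowest over the 26 lungs, at 0.08, and over the 21, at 0.013. In the RV Tyms was lowest in each set, at -0.146, -0.21 and -0.095. Across the 25 animals with both tissues, the mean of the 35 genes centred on litter had an r of 0.397 between lung and RV.

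Set against the promoter elements shown above, the calls in 4HH against 3HH lungs fell as follows. Of 16 measured genes with TTTGAA in the promoter 10 were higher, with a median change of 1.085, and of 11 without it 6 were higher, with a median of 0.92. With either form, TTTGAA or TTTAAA, 14 of 21 were higher, with a median of 1.08, against 2 of 6 with neither, with a median of 0.89. The 6 with neither were Cdca3 and Tk1, which were called, and Gins2, Mybl2, Pcna and Tyms, which were not. With CCAAT 11 of 19 were higher and without it 5 of 8. These counts are a description and were not tested.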

How the data were processed

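Libraries of frozen lung and RV were made with an mRNA kit (KAPA HyperPrep) and read on an Illumina HiSeq4000, per the labels' protocols. The deposited tables hold whole-number counts of reads per gene, made by the authors with STAR 2.5 and featureCounts 1.5.1, per the submitters' processing notes, together with other columns for position and summed exon length on rn6. Counts were analysed with edgeR 4.0.16 (TMM scaling, genes kept by filterByExpr with a minimum count of 10, quasi-likelihood test, robust) and R 4.3.3, fitted on all genes, with Benjamini-Hochberg adjustment and a threshold of 0.05. DESeq2 1.42.0 and limma 3.58.1 voom served as alternatives. Comparisons of the airs used all libraries of a tissue, and comparisons of litters only the litters named. CPM are scaled by TMM, and log2 CPM for correlations has a prior count of 1. Members and gene lists were chosen with earlier results of these data known. Levels by group are given for Mki67, Top2a, Cdk1, Ccnb1, Aurkb, Bub1, Ccna2, Rrm2, Pcna, E2f1 and Foxm1 and for the 8 members with the largest called changes in a comparison; any further gene given a level was chosen after its values were seen. From each other list the 2 largest called changes in each direction were named, apart from a result that is not reported here. The method was tested on simulated counts. Single rats give the spread. No label says more about pairing than the animal number, by which lung and RV of the same rat were matched. Same-animal deviations had a mean r of 0.242 over 25 rats, with a lowest of -0.197, against -0.015 for other animals. Each gene's p-value covers counting error and the spread between rats only. In the fits between the airs that spread includes the difference between the 2 litters of an air. Only the fit with litter as a random effect allows for further litters.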

Additional observations from a re-analysis of the deposited data

Results flagged for a closer look

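Of 88 groups of 4 to 8 libraries tested for a single library far from the rest of its litter, 10 were marked. Chance marks about 1 in 20 independent groups, but these groups share libraries, and their genes vary together. The count of marks therefore cannot be set against that rate. In the lung of 4HH39, Cdk1 at 85.6 CPM and Pcna at 232 CPM were the highest of 4HH. Of all libraries, this one had the most negative r between deviation and gene length. In the lung of 6RARA66, the library of fewest counts, Ccnb1 at 25.8 CPM was the highest of 6RARA and Rrm2 at 0 CPM the lowest, where 3 counts would correspond to 2.77 CPM. Top2a at 27.3 CPM in the lung of 4RARA40 was the lowest of 4RARA. In the RV, Bub1 at 28.3 CPM was highest in 3HH20, Mki67 at 84.9 CPM in 4RARA39, and Rrm2 at 6.1 CPM, Pcna at 61.2 CPM and Foxm1 at 10.7 CPM in 4RARA38. The change of Aurkb between H-H and RA-RA differed between lung and RV by 1.36 on the log2 scale (adjusted p = 0.0486 by edgeR), higher in the lung. This was not called with the animal as a block (1.11, adjusted p = 0.0945 by edgeR) or without 6RARA. The lung change was 1.78 with 3HH alone against RA-RA, and 0.45 and not called with 4HH alone.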

How the results depend on the processing

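In 4HH against 3HH lungs, 21 of 35 genes were called, 13 to 28 when single libraries were left out, and 0 with Alas2 as a covariate and within each library batch, where fewer libraries are compared. In H-H against RA-RA lungs, 3 were called. The number was 28 without litter 3HH, 6 without 4RARA, 8 by DESeq2, 5 with the RNA integrity number as a covariate, 6 without 4HH39, 6RARA66 and 6RARA68, and 21 with the lymphocyte index. It was 1 without 4HH, without 6RARA and in males, and 0 in females, in each batch and with litter as a random effect. Without 4HH, 17 of the 35 changes were negative, and of the genes followed across alternatives those of Top2a (-0.0862), Cdk1 (-0.10), Ccnb1 (-0.27) and Pcna (-0.0165) were among them. In the RV, 1 was called between the airs. The number was 3 by DESeq2, 2 with Alas2, 19 without 4RARA, and 0 without each other litter, with batch, integrity or random litter terms, in each sex and in each batch. In 6RARA against 4RARA lungs, 2 were called, where 31.3% of all genes were called. It was 2 to 7 when single libraries were left out (7 without 4RARA40 and 7 without 6RARA68, where 25.6% and 39.3% of all genes were called), 5 by DESeq2 (36.4%), 4 with Alas2 (28%) and 6 without 6RARA66 and 6RARA68 (41.7%), each a smaller share than that of all genes. In 4HH against 3HH RVs it was 0 in every alternative, from 0 to 0. Without a litter term, slopes on Alas2 were called for 18 genes in the lung and 7 in the RV. The Tyms slope on the lymphocyte index was lost (0 called) without the 2 farthest libraries, without the 3 libraries named above and with Alas2 added. The r of Mki67 without those 3 was 0.043 with Alas2 and 0.046 with the index. With the animal as a replicate block, over the 25 rats with both tissues, Aurkb lost its tissue difference (1.11, adjusted p = 0.0945 by edgeR, 0 called). It was also lost without 6RARA (0), and the block changed no other call. The causes were not tested. Depth limits the least abundant genes, at a median of 31.0 counts in the RV.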
